A study of Mus musculus with 12 samples.

Results

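The comparison described here set the cerebral cortex of double knockout mice (DKO) against that of control mice (Con). It was defined by the sample labels, which gave 3 DKO and 3 Con cortex arrays, 6 of the 12 arrays of the series. The other 6 arrays held basal forebrain of the same mice. By their genotypes DKO mice carried Cre driven from Chat (ChatCre) and no working copy of Psen2 (PS2-/-), and Con mice carried no Cre and 1 working copy (PS2+/-). Both genotypes carried a floxed target of Cre on both chromosomes. All mice were aged 2 months and labelled male. Recombination was thus aimed at cholinergic cells, while a working copy of Psen2 was missing from every cell of the DKO mice. RNA came from whole dissected tissue after cervical dislocation, and 1-colour Agilent arrays with probes of 60 bases measured it.

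Psen2 encodes presenilin 2, a catalytic subunit of gamma-secretase, the membrane protease that cuts APP and the Notch receptors within the membrane. In cells the enzyme also needs nicastrin, an Aph1 subunit and the presenilin enhancer Psenen. Most acetylcholine in cortex is released by axons whose cell bodies lie in the basal forebrain, so cortex holds few transcripts of cholinergic neurons and receives their output. The question put by the study's title was what loss of presenilin in cholinergic neurons does to ageing and inflammation.

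Levels are given on 1 scale throughout, as log2 intensity minus the 75th percentile of the array. A level of 0 is therefore that percentile, and a difference of 1 is 2-fold. The brightest probe stood for a gene. In all, 25599 genes were tested with limma, those whose probe the scanner called well above background (clearly brighter than the array surface) in every mouse of 1 genotype or both.

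All 6 cortex arrays had 68.9% to 72.2% of their probes well above background. Slc17a7, the vesicular glutamate transporter of cortical excitatory neurons, stood at 2.92 to 3.11 on them, against -0.45 to 1.67 on the basal forebrain arrays. Lhx8, a transcription factor of basal forebrain cholinergic neurons, stood at -4.03 to -2.21 in cortex and 2.20 to 2.80 in basal forebrain. The arrays lay on 2 slides. DKO 3 shared slide 2 with Con 1, Con 2 and Con 3, while DKO 1 and DKO 2 lay on slide 1 with all basal forebrain arrays. Over the tested genes DKO 3 correlated with the Con arrays at r of 0.994 to 0.996 and with DKO 1 and DKO 2 at 0.989 and 0.986, whereas DKO 1 and DKO 2 correlated with each other at 0.995. The array of DKO 3 therefore stood with its slide rather than with its genotype, and values for DKO 3 against Con within the shared slide are given beside the results that turn on them. The RNA did not match the sex label in every mouse. Xist, the RNA of the inactive X chromosome, stood at -1.80 in DKO 1, -8.28 in DKO 2 and -2.32 in DKO 3, and at -6.48, -7.89 and -8.52 in Con. The Y-linked Eif2s3y read -8.85 in DKO 1 and -8.48 in DKO 3, below background, against 0.87 in DKO 2 and 0.36 to 0.58 in Con. DKO 1 and DKO 3 thus differed from Con in sex-linked RNA as well as in genotype. DKO 2 did not, but lay on the other slide, so that no DKO array shared both with Con. With DKO 2 as the only DKO mouse, Psen2 differed by -2.05, 6330418B08Rik by -1.95 and Ms4a1 by 5.21.

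With all 6 arrays, 3 of 25599 genes passed an adjusted p of 0.05 (0.0117%). Psen2 and the unnamed transcript 6330418B08Rik fell, and the B-cell gene Ms4a1 rose. The probes that read 6330418B08Rik and Ms4a1 are shown so that they can be placed; the positions are mm9 and each sequence is given 5' to 3'.
6330418B08Rik, chr1:176992099-176992158, minus strand: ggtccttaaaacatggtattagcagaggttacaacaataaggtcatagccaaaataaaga
Ms4a1, chr19:11325409-11325468, minus strand: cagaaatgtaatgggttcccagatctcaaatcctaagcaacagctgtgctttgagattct

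Of the 25599 tested genes 10639 had positive differences in DKO and 14960 negative. An unadjusted p under 0.05 was found for 1751 genes higher in DKO (6.84%) and 3081 lower (12%). The 3 DKO arrays lay above all 3 Con arrays for 2271 genes (8.87%) and below them for 3455 (13.5%). For DKO 3 alone, 6428 genes (25.1%) lay above all 3 Con arrays of its slide and 7274 (28.4%) below. With DKO 3 left out 9709 genes passed, and with Con 2 or Con 3 left out 1. With DKO 2 left out 8 did, among them Psen2, 6330418B08Rik and the Y-linked Eif2s3y, Ddx3y and Uty. The DKO mice left in that fit were those with Xist signal. The shares above are the background against which each gene list below is read. All lists were drawn up with earlier results of these data known, and in whole tissue fewer cells of a type and less RNA per cell cannot be told apart.

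Psen2, of which the DKO mice have no working copy, read -1.70, -1.59 and -1.67 on the DKO arrays and 0.42, 0.50 and 0.47 on the Con arrays. The genotypes were far apart and each was tight. The probe stood well above background on all 3 DKO arrays, so its signal was lower there but not absent. The difference was -2.12 (SE 0.08, n = 3 per genotype, 4.33-fold, limma adjusted p = 0.000325), and DKO 3 alone differed from the Con of its slide by -2.13. A second, dimmer Psen2 probe read -6.97, -7.57 and -5.39 in DKO against -3.80, -4.00 and -3.55 in Con. That probe was well above background on 1 of 3 DKO arrays and on all 3 Con arrays. When the probes of a gene were averaged, the difference was -2.49 and the adjusted p 0.0617. Since Con mice carry 1 copy, the difference is not that from wild-type cortex.

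Of the other gamma-secretase subunits none passed. Aph1b, an Aph1 subunit, differed by 0.19 (SE 0.07, limma adjusted p = 0.261), Ncstn, which encodes nicastrin, by -0.22 (SE 0.11, 0.301), and Psenen by 0.06 (SE 0.05, 0.474). Aph1a read 1.64, 1.58 and 1.94 in DKO against 2.00, 1.94 and 1.75 in Con, so the genotypes overlapped. Among 20 tested Notch receptors, ligands and targets, 0 passed by limma, 1 had an unadjusted p under 0.05 with the higher level in DKO and 2 with the lower, and the median difference was -0.06, beside -0.05 over all tested genes. Hes5, a transcription factor induced by Notch, differed by -0.26 and Hes1 by -0.35.

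6330418B08Rik read -5.13, -4.99 and -5.42 in DKO against -3.06, -2.90 and -3.16 in Con. The genotypes did not overlap and no array stood apart within its genotype. The difference was -2.14 (SE 0.18, n = 3 per genotype, 4.41-fold, limma adjusted p = 0.0412). DKO 3 alone, as in a fit with a slide term, differed from Con by -2.38. In basal forebrain of the same mice the difference was -2.08. With normexp, another background correction, the cortex difference was -1.08. Over the alternatives tried its adjusted p ran from 2.94e-05 to 0.401, with 10 of 21 above the threshold. Its probe lies on the same chromosome as Psen2, 5.17 Mb away. The probe used for Rgs7, a regulator of G-protein signalling in neurons, begins at position 176989640 of that chromosome, just beside it. Rgs7 read 2.38, 2.48 and 2.60 in DKO against 2.91, 2.90 and 2.81 in Con, a difference of -0.39 (SE 0.07, limma adjusted p = 0.253) that did not pass.

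Ms4a1 encodes CD20, a membrane protein of B lymphocytes. It read -3.56, -2.92 and -3.12 in DKO against -7.16, -8.71 and -8.53 in Con, where it never stood well above background. The difference was 4.93 (SE 0.44, n = 3 per genotype, limma adjusted p = 0.0412), which given the background of the Con arrays means at least 8.88-fold. DKO 3 alone, as in a fit with a slide term, was 5.02 above Con. With normexp, the other background correction, the difference over all arrays was only 1.45, below the 8.88-fold bound. Over the alternatives tried the adjusted p ran from 7.26e-05 to 0.401, with 9 of 20 above the threshold. A second Ms4a1 probe at chr19:11324334-11324393 read -6.62, -6.61 and -5.37 in DKO against -6.23, -6.48 and -5.67 in Con. It was well above background on 1 DKO array and 2 Con arrays and did not show the difference (-0.07).

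**Figure D1:**
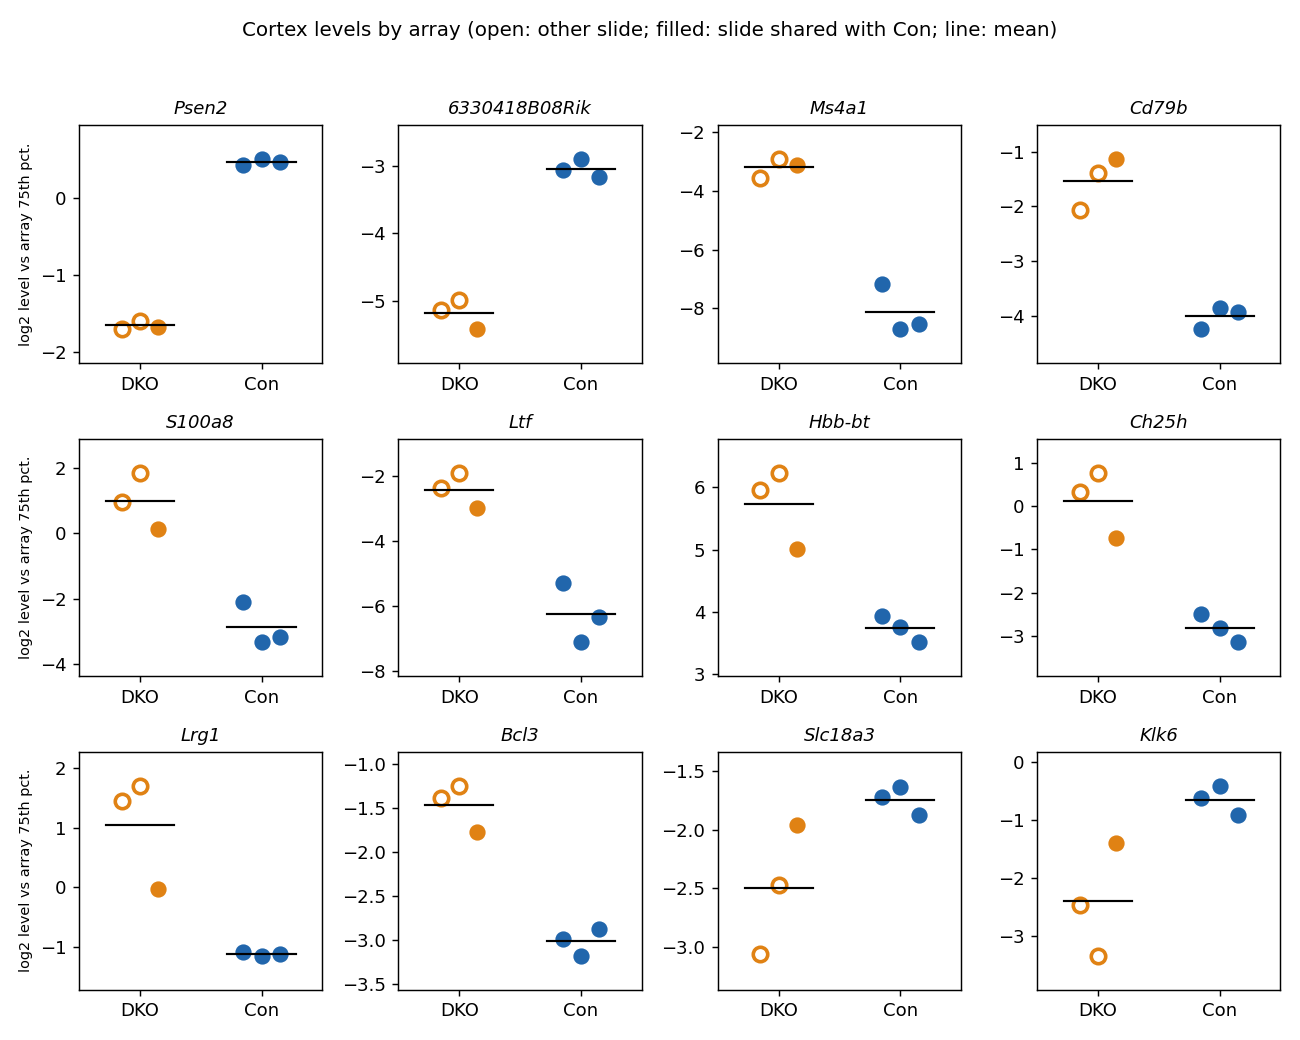
Levels of 12 genes on the 6 cortex arrays, as log2 intensity minus the 75th percentile of the array; open circles are DKO 1 and DKO 2 on their own slide, filled orange DKO 3 and blue Con 1 to 3 on the shared slide, bars the means. DKO 3 lies with the other DKO arrays for Psen2, 6330418B08Rik and Ms4a1, and between them and Con for Lrg1, Slc18a3 and Klk6.

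Of 16 tested B-cell markers 12 had positive differences in DKO cortex and 4 negative. Among them 9 had an unadjusted p under 0.05 upward and 0 downward, 1 passed over all genes, and the median difference was 0.84. DKO 3 lay above all Con arrays for 13 of the 16, with a median of 1.13, and the medians of DKO 1 and DKO 2 were 0.51 and 0.81. Cd79b, a signalling chain of the B-cell receptor, read -2.06, -1.39 and -1.14 in DKO against -4.23, -3.85 and -3.92 in Con. All 3 DKO arrays were high, and DKO 3 was the highest. The difference was 2.47 (SE 0.24, limma adjusted p = 0.0534), just above the threshold, and 2.86 for DKO 3 alone.

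Fcrla, an Fc receptor-like protein of B cells, was not well above background in Con and was at least 1.93-fold higher in DKO (3.26, SE 0.45, limma adjusted p = 0.142). With normexp its difference was 0.44, below that bound. Spib, a transcription factor of the B lineage, differed by 2.69 and Fcmr, the receptor for IgM, by 1.13. Vpreb3, made by B-cell precursors, read -3.68 in DKO 1, -3.99 in DKO 2 and -1.34 in DKO 3 against -5.31 to -4.78 in Con. It differed by 2.02 over all arrays (limma adjusted p = 0.261). A slide term sets only DKO 3 against Con, since DKO 1 and DKO 2 share no slide with Con. That difference was 3.68 for Vpreb3 and 4.13 for Fcrla. Other defining markers had differences near 0: Cd79a by -0.07, Pax5 by -0.10, Ebf1 by -0.04 and Cd22 by 0.01. Some of these are also made by brain cells, and all 4 were well above background on every Con array. The mean level of the 16 markers was -3.48 to -2.71 in DKO and -4.50 to -4.37 in Con.

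Of 19 tested neutrophil markers 18 had positive differences and 1 negative. Among them 12 had an unadjusted p under 0.05 upward and 0 downward, 0 passed by limma over all genes, and the median difference was 0.92. S100a8 and S100a9 encode the calcium-binding pair that fills the cytosol of neutrophils. S100a8 read 0.96, 1.85 and 0.14 in DKO against -2.11, -3.33 and -3.16 in Con. The difference was 3.85 (SE 0.46, 14.4-fold, limma adjusted p = 0.0836), with DKO 2 the highest and DKO 3 the lowest of its genotype but still 3.00 above the Con of its slide. S100a9 differed by 3.64 (SE 0.44, adjusted p = 0.0836).

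The list holds genes of granules that are loaded during maturation in marrow. Ltf, which encodes lactoferrin of the secondary granules, read -2.37, -1.88 and -2.99 in DKO against -5.31, -7.13 and -6.35 in Con (difference 3.85, SE 0.47, limma adjusted p = 0.0836). Ngp, another granule protein, differed by 3.08 and Camp, the cathelicidin precursor, by 0.96. Mpo, the myeloperoxidase of primary granules, read -3.20, -3.30 and -3.02 in DKO against -4.41, -4.59 and -4.30 in Con (difference 1.26, SE 0.16, adjusted p = 0.113). Elane and Prtn3, proteases of the same granules, differed by -0.14 and 0.00. Retnlg differed by 3.48 and Chil3, a chitinase-like protein of myeloid cells, by 3.41. Wfdc21, a small secreted protein, was at least 8.23-fold higher and Mcpt8, a protease of basophils, at least 3.61-fold higher, neither above background in any Con mouse. Nfe2, a transcription factor of erythroid cells and megakaryocytes, was at least 2.13-fold higher. None of these passed. The mean level of the 19 markers was -2.31 to -1.33 in DKO and -3.67 to -3.16 in Con.

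Of 14 tested red-cell markers 11 had positive differences and 3 negative. Among them 9 had an unadjusted p under 0.05 upward and 2 downward, 0 passed by limma, and the median difference was 1.23. Hbb-bt, an adult beta-globin, read 5.96, 6.24 and 5.01 in DKO against 3.93, 3.76 and 3.51 in Con. The genotypes did not overlap, and DKO 3 stood between. The difference was 2.01 (SE 0.29, 4.02-fold, limma adjusted p = 0.157), and 1.28 for DKO 3 on the shared slide. Globin probes can cross-react between copies, so Hbb-b1 (2.07), Hbb-b2 (1.69), Hba-a1 (1.23) and Hba-a2 (1.23) are not independent readings. Alas2, the erythroid enzyme of haem synthesis, differed by 2.17, Slc4a1, the red-cell anion exchanger, by 1.68, and Ahsp, which holds free alpha-globin, was at least 4.65-fold higher. Klf1, the transcription factor of red-cell precursors, differed by -0.01 and Car1, a red-cell carbonic anhydrase, by -0.72. The mean level of the 14 markers was 1.1 to 1.7 in DKO and 0.28 to 0.51 in Con. No perfusion step is named in the labels used here, and the share of blood in the tissue was not tested.

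For T-cell and natural killer markers the median was 0.11 over 13 tested genes, with 2 at an unadjusted p under 0.05 upward and 1 downward. Cd2, an adhesion receptor of T cells, differed by 1.81 (limma adjusted p = 0.261), and Cd3e, a chain of the T-cell receptor complex, by -0.34. Among 12 markers of border macrophages and monocytes the median was 0.36 over all arrays. It was -0.14 for DKO 3 on the shared slide, so the direction of that list rested on DKO 1 and DKO 2. Plac8, found in monocytes and other blood cells, read -3.19, -2.24 and -2.52 in DKO against -4.76, -4.83 and -5.16 in Con (difference 2.27, SE 0.26, limma adjusted p = 0.0836). The perivascular macrophage markers Mrc1, Lyve1, Cbr2 and Pf4 differed by -0.10, -0.01, 0.05 and -0.13.

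**Figure D2:**
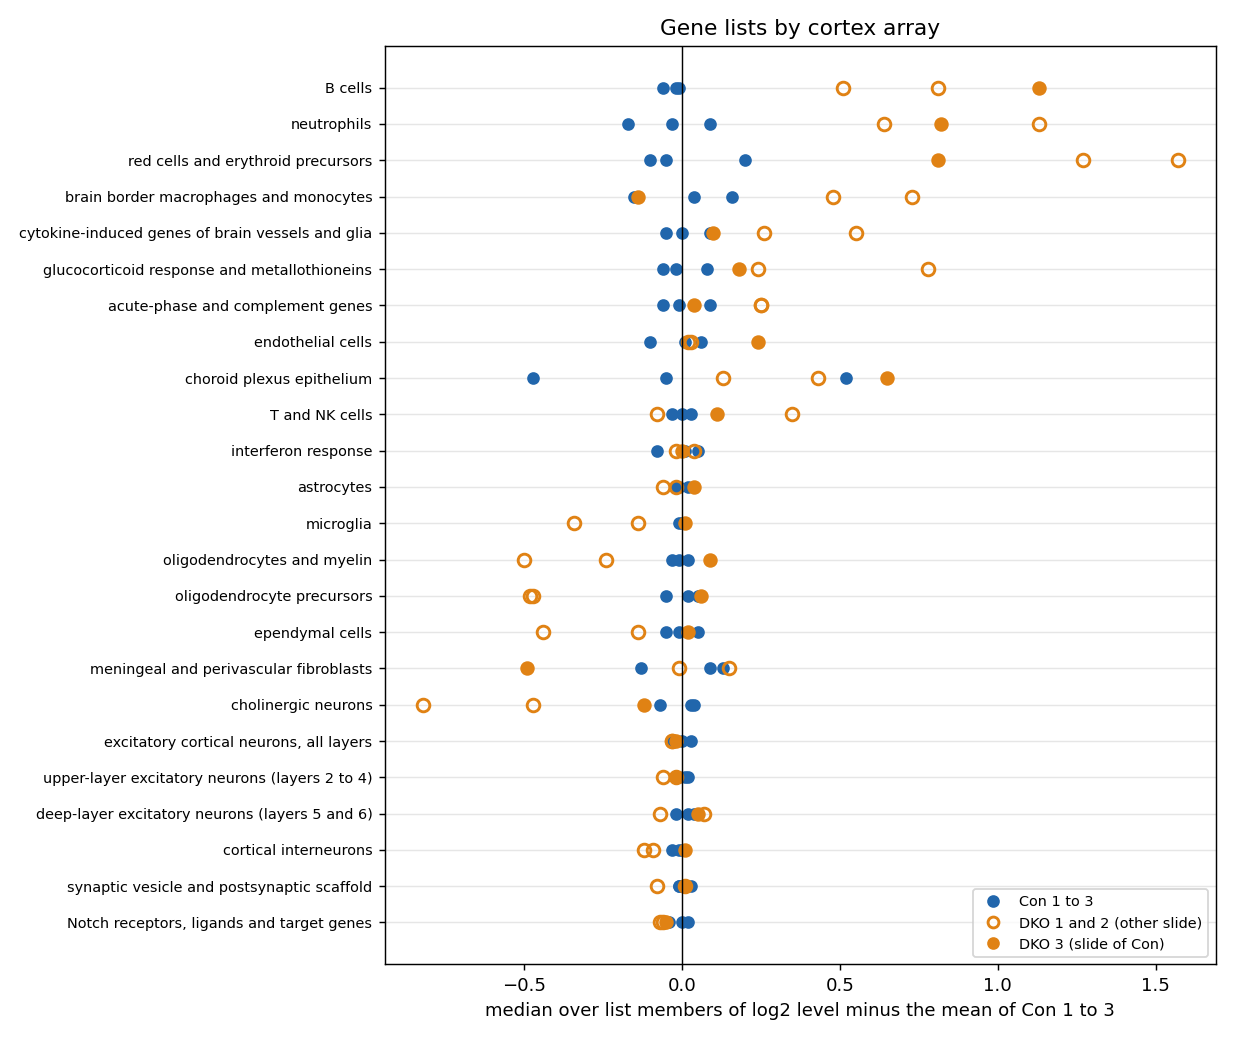
Median over the tested members of 24 gene lists of the log2 level minus the mean of Con 1 to 3, for each cortex array; symbols as labelled. B-cell, neutrophil and red-cell lists lie above Con on all 3 DKO arrays (0.51 to 1.57), while microglia, myelin and precursor lists lie below Con on DKO 1 and DKO 2 and near 0 on DKO 3.

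Of 34 tested genes that vessels and glia make in response to circulating cytokines, 25 had positive and 9 negative differences. Among them 15 had an unadjusted p under 0.05 upward and 0 downward, 0 passed by limma, and the median difference was 0.39. Bcl3, a nuclear partner of NF-kB, read -1.39, -1.25 and -1.77 in DKO against -2.99, -3.18 and -2.88 in Con. The DKO arrays lay close together and clear of Con. The difference was 1.54 (SE 0.17, 2.91-fold, limma adjusted p = 0.0784). Ch25h, which makes 25-hydroxycholesterol in endothelium and macrophages, read 0.32, 0.77 and -0.73 in DKO against -2.49, -2.81 and -3.14 in Con (difference 2.93, SE 0.36, adjusted p = 0.0836). Cxcl1, a chemokine that draws neutrophils, differed by 1.97 (SE 0.35, adjusted p = 0.224).

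Lrg1, a secreted glycoprotein induced in endothelium, read 1.44, 1.70 and -0.03 in DKO against -1.09, -1.15 and -1.13 in Con. DKO 3 was 1.1 above Con and far below DKO 1 and DKO 2. Lcn2, the iron-siderophore carrier lipocalin 2, differed by 3.28 on the probe used and by 5.43 on a second probe. Both Lcn2 and Lrg1 are also neutrophil genes, and Lcn2 stands in that list too. Among the receptors and regulators, Osmr, the oncostatin M receptor, differed by 0.78, Il1r1, the interleukin 1 receptor, by 0.60, Socs3, which brakes cytokine signalling, by 0.48, and Cebpd, a transcription factor of the acute phase, by 0.98. Icam1, the adhesion molecule that leukocytes bind, read -0.79, -0.61 and -1.66 in DKO against -1.96, -2.18 and -2.09 in Con (difference 1.05, SE 0.26, limma adjusted p = 0.261). For DKO 3 alone the list's median was 0.10, with 18 of 34 members above all Con arrays of the slide and 8 below. The blood-cell lists above differed on the same arrays, and their part in this result was not tested.

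The promoter of Cxcl1 is shown because a script found the NF-kB consensus in it, in capitals. The consensus, searched on both strands in the 250 bases before RefSeq gene starts (GRCm38.p6), overlaps itself here by all but 1 base. Of the 28 tested members of the list with a promoter sequence 7 held it (25%), of the 12 among them with an unadjusted p under 0.05 upward 2 did (16.7%), and of all 27025 genes with such a sequence 8.23% did (7.25% of 32851 windows, since some genes have several). A match describes these letters and not a bound site.
Cxcl1, chr5:90890995-90891244, plus strand: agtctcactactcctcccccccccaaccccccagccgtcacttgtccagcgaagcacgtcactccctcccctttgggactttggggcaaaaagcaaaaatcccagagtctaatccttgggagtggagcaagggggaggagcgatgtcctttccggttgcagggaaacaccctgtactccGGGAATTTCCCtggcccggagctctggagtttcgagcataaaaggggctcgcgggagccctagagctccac

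Acute-phase and complement genes gave a median of 0.20 over 18 tested members, with 7 at an unadjusted p under 0.05 upward and 0 downward. Hp, which encodes haptoglobin and is also made in neutrophils, differed by 1.99 (SE 0.42, limma adjusted p = 0.261), and Cfb, complement factor B, by 1.68. The microglial complement genes C1qa and C1qb differed by -0.02 and 0.15, and C3 by -0.18. On DKO 3 the list's median was 0.04. Among 28 interferon-response genes the median was 0.00, with 3 upward and 4 downward. Ifit3, an antiviral protein, differed by -0.37 and Rsad2, another, by 0.75. Of 28 tested genes of senescence and its secretory phenotype 6 were upward and 2 downward at an unadjusted p under 0.05, with a median of 0.06.

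Of 22 glucocorticoid-response and metallothionein genes 9 had an unadjusted p under 0.05 upward and 0 downward, with a median of 0.38, and 0 passed by limma. Mt1, a metal-binding metallothionein, was the most even of them. It read 7.01, 7.05 and 6.99 in DKO against 6.62, 6.63 and 6.72 in Con (difference 0.36, SE 0.05, 1.28-fold, limma adjusted p = 0.104), and 0.33 for DKO 3 alone. Plin4, a lipid-droplet protein, read 1.03, 2.06 and -0.99 in DKO against -1.03, -1.32 and -1.89 in Con, with DKO 3 close to Con. Sult1a1, a sulfotransferase, differed by 1.47 and Angptl4, an inhibitor of lipoprotein lipase, by 0.74. Textbook targets differed in sign: Sgk1, a kinase, differed by 0.43, Fkbp5, a cochaperone of the receptor, by 0.43 with overlap, Per1, a clock gene, by 0.01, and Tsc22d3, known as GILZ, by -0.16. Median values were 0.24 for DKO 1, 0.78 for DKO 2 and 0.18 for DKO 3.

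Endothelial markers gave a median of 0.09 over 21 genes, with 6 at an unadjusted p under 0.05 upward and 0 downward. Vwf, the adhesive protein of von Willebrand, read 2.72, 3.26 and 1.80 in DKO against 0.94, 0.77 and 0.84 in Con (difference 1.75, SE 0.32, 3.35-fold, limma adjusted p = 0.232). All DKO arrays were above Con. Cldn5, a tight-junction protein of the blood-brain barrier, differed by 0.46 (SE 0.15), while Pecam1, Tek and Cdh5, general endothelial genes, differed by -0.11, -0.11 and -0.30. DKO 3 lay above all Con arrays for 17 of the 21, with a median of 0.24.

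Astrocyte markers split. Of 19 tested 5 had an unadjusted p under 0.05 upward and 4 downward, with a median of -0.04. Fgfr3, a growth factor receptor, read 4.07, 4.27 and 4.09 in DKO against 3.90, 3.79 and 3.82 in Con (difference 0.31, SE 0.07, limma adjusted p = 0.261). All DKO arrays lay above Con. Aqp4, the water channel of astrocyte endfeet, differed by -0.72 (SE 0.17). Gfap, which reactive astrocytes make more of, differed by -0.17. Etnppl, an astrocyte enzyme that breaks down phosphoethanolamine, is not in this list and was named outside the rule for named genes. It read 3.52, 4.10 and 2.36 in DKO against 0.95, 0.71 and 1.17 in Con. Its difference of 2.39 (SE 0.39, 5.23-fold, limma adjusted p = 0.183) was like that of a second probe (2.02) and larger than that of another, dimmer one (0.70).

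Transcripts of cholinergic neurons, the cells in which Cre is driven, were mostly lower on DKO 1 and DKO 2 and less so on DKO 3. Of 13 tested, DKO 3 lay below all Con arrays for 6 and above them for 2. Chat, the enzyme that synthesises the transmitter, read -2.33, -2.35 and -1.66 in DKO against -1.55, -1.34 and -1.95 in Con. The genotypes overlapped through DKO 3, and the difference was -0.50 (SE 0.23, limma adjusted p = 0.275). A dimmer Chat probe, well above background on every cortex array, differed by 0.01, and another such probe by -0.40. A further probe, above background on 1 Con array only, differed by -1.18. The remaining Chat probes were never well above background in cortex. Slc18a3, the vesicular acetylcholine transporter, read -3.06, -2.47 and -1.96 in DKO against -1.72, -1.64 and -1.88 in Con. That is a difference of -0.75 (SE 0.25, adjusted p = 0.261), and -0.22 for DKO 3. Slc5a7, the choline transporter, differed by -0.62. Ngfr, the neurotrophin receptor of these neurons, read -2.82, -2.69 and -2.15 in DKO against -1.71, -1.81 and -1.61 in Con (difference -0.85, SE 0.18, adjusted p = 0.261), without overlap. Ecel1, another marker of the list, differed by -0.59 without overlap (limma adjusted p = 0.261), and by -0.44 for DKO 3.

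Over 13 tested cholinergic markers 4 had an unadjusted p under 0.05 downward and 0 upward. Of the differences 11 were negative, beside 14960 of all 25599 tested genes, and the median was -0.50. It was -0.82 for DKO 1, -0.47 for DKO 2 and -0.12 for DKO 3. Most of these transcripts are dim in cortex, and the median of dim genes was below Con on DKO 1 and DKO 2. In the dimmest 20% of all tested genes it was -0.43 in DKO 1, -0.45 in DKO 2 and -0.03 in DKO 3, and in the brightest 20% it was 0.01, 0.01 and 0.00. Chat, Slc18a3, Slc5a7 and Ngfr lie in the second and the third of these bins from the dim end. The medians there were -0.13 and -0.02 in DKO 1 and -0.16 and -0.04 in DKO 2. Striatal neuron genes had medians of -0.30, 0.17 and 0.16 in DKO and -0.04, 0.26 and -0.19 in Con. For hypothalamic, septal and basal forebrain genes they were -0.26, -0.05 and -0.00 in DKO and -0.02, 0.04 and -0.07 in Con. Both lists overlap with the cholinergic list. The part of signal level, slide and dissection in the differences of the cholinergic list was not tested. In basal forebrain, where the same genes are bright, the list's median was 0.11. Among 17 acetylcholine receptor genes the median was -0.03, with 4 upward and 0 downward.

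**Figure D3:**
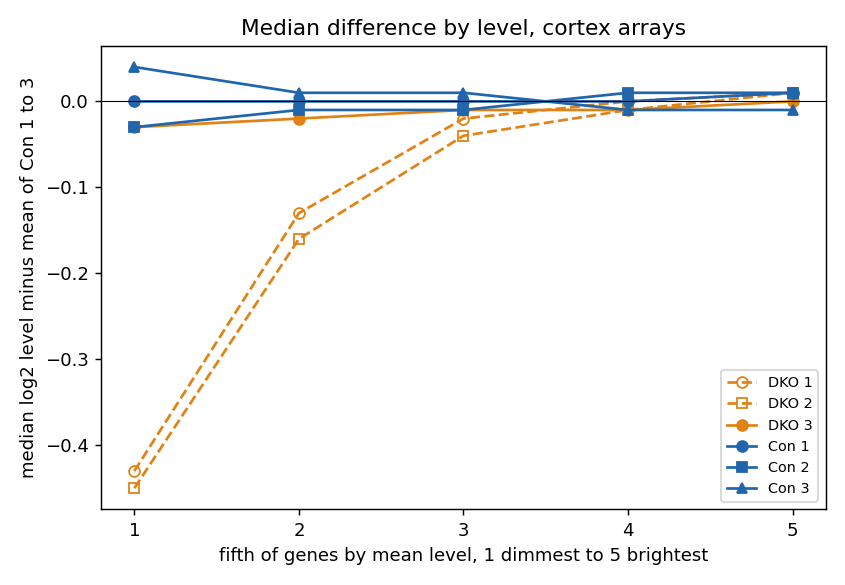
Median over the genes of each of 5 equal bins by mean level of the log2 level minus the mean of Con 1 to 3, for each cortex array (orange DKO, blue Con; dashed lines the slide of DKO 1 and DKO 2). DKO 1 and DKO 2 fall away at the dim end, to -0.43 and -0.45, and DKO 3 stays with Con.

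Beside Psen2, the largest negative differences by rule were mostly of dim genes. They included 6 olfactory receptor genes (Olfr606, Olfr945, Olfr1494, Olfr611, Olfr906 and Olfr1030), with differences of -2.20, -2.17, -2.07, -1.96, -1.62 and -1.55. None passed, and DKO 3 differed from Con by -1.76, -0.93, -0.77, -0.60, -0.56 and -0.41 in the same order. Olfr606 and Olfr1494 were not well above background in any DKO mouse and were at least 1.21-fold and 1.81-fold lower. Gata4, a transcription factor of heart and gut, and Fbxl13, an F-box protein, were likewise at least 1.53-fold and 1.90-fold lower. Alpk1, a kinase that senses a bacterial sugar, differed by -1.61, with Con 3 (-5.27) near the DKO arrays (-5.93 to -5.70). Tnc, the matrix protein tenascin C, differed by -1.57, and by -0.49 for DKO 3.

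Brighter genes were also among the negative differences. Klk6, a protease of oligodendrocytes, read -2.47, -3.34 and -1.40 in DKO against -0.62, -0.41 and -0.92 in Con (difference -1.75, SE 0.43, limma adjusted p = 0.261). DKO 3 was nearest to Con. Among genes that did not pass, small p-values downward belonged to smaller differences: Dusp23, a phosphatase, read -0.95, -1.09 and -1.07 in DKO against -0.45, -0.48 and -0.40 in Con (difference -0.59, SE 0.09, limma adjusted p = 0.175), and Zfp658, a zinc-finger protein, 4.61, 4.63 and 4.73 against 4.96, 4.97 and 4.95 (difference -0.30, SE 0.05, adjusted p = 0.203). Tnnc1, a troponin, differed by -0.94 and Srrm4os, a transcript antisense to a splicing factor gene, by -1.11. Upward, Apol11b, an apolipoprotein L, read -3.89, -3.39 and -3.90 in DKO against -6.03, -6.43 and -6.04 in Con (difference 2.44, SE 0.24, adjusted p = 0.0534).

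Glial lists were lower on DKO 1 and DKO 2 only. For 22 oligodendrocyte and myelin genes the median was -0.24 in DKO 1, -0.50 in DKO 2 and 0.09 in DKO 3. Ugt8a, which makes myelin galactolipids, read -0.02, -0.81 and 0.87 in DKO against 0.97, 1.05 and 0.98 in Con. Mobp, a myelin protein, went the other way, with 3.98, 4.09 and 3.75 against 3.26, 3.54 and 3.49. For 12 oligodendrocyte-precursor genes the medians were -0.47, -0.48 and 0.06, and for 22 microglial genes -0.14, -0.34 and 0.01. Trem2, a microglial lipid receptor, differed by -0.32 and P2ry12, a purine receptor of resting microglia, by -0.69, with DKO 3 at -0.07 and 0.10 from Con. Pdia4, a chaperone of the endoplasmic reticulum, read -0.60 and -0.97 in DKO 1 and DKO 2 and 0.73 in DKO 3, against 0.61 to 0.91 in Con.

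**Figure D4:**
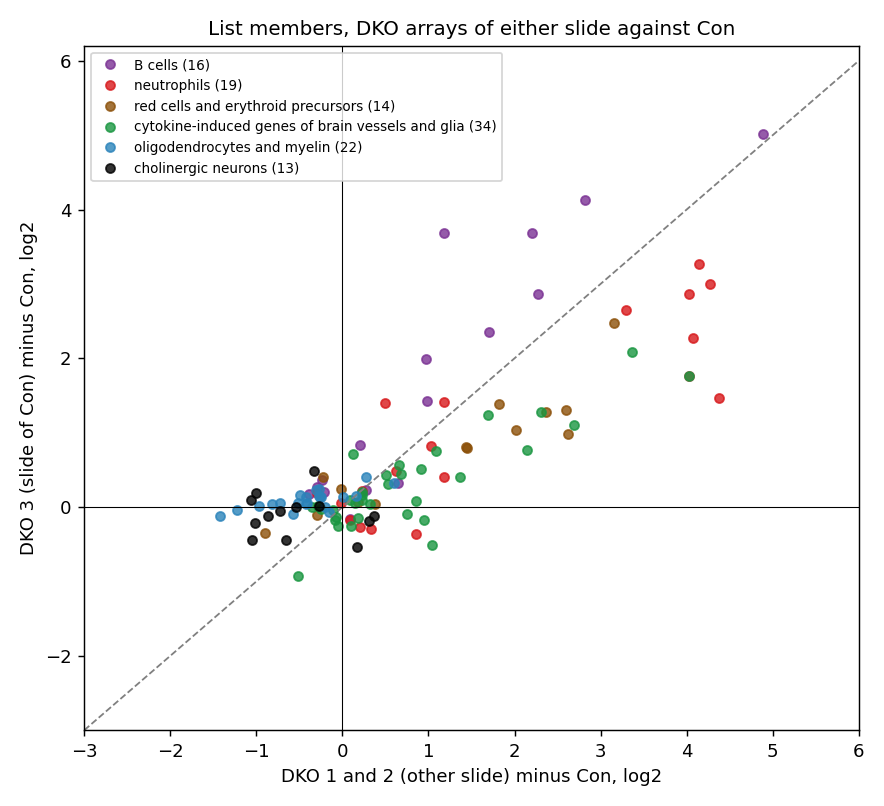
Difference from Con of DKO 3, on the slide of Con (vertical), against that of DKO 1 and DKO 2, on the other slide (horizontal), for the tested members of 6 lists, in log2; the dashed line marks equality and both axes share the Con arrays. The most shifted B-cell genes lie above the line, up to Ms4a1 at 5.02 for DKO 3, most neutrophil, red-cell and cytokine-induced genes with large differences lie below it and above 0, and myelin and most cholinergic genes lie near the horizontal axis.

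For transcripts of cortical neurons the median was -0.03 over 12 genes of excitatory neurons, -0.08 over 17 of upper layers, 0.02 over 18 of deep layers, and -0.10 over 24 of interneurons. Slc17a7 read 2.96, 3.08 and 2.92 in DKO against 2.99, 2.97 and 3.11 in Con. Nrn1, a neurite-promoting protein, differed by -0.48 and Sst, the peptide of an interneuron class, by -0.16, neither passing. Synaptic vesicle and scaffold genes gave -0.01 over 35, glutamate and GABA-A receptor subunits 0.02 over 36, and respiratory chain genes 0.00 over 40. Bdnf, the activity-regulated neurotrophin, read 0.49, 0.47 and 0.86 in DKO against 1.1, 0.88 and 1.27 in Con (difference -0.48, SE 0.14, limma adjusted p = 0.261). Among 23 immediate early genes the median was 0.08. DKO 3 lay above all Con arrays for 13 and below them for 2, beside 25.1% and 28.4% of all tested genes. By array the medians were -0.05, -0.50 and 0.40 in DKO and 0.06, -0.27 and 0.20 in Con, so the list varied within both genotypes.

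Markers of neighbouring tissue differed between arrays. All 20 choroid plexus genes had positive differences, with a median of 0.41 and 7 at an unadjusted p under 0.05. The list varied within Con too: the medians were 0.43, 0.13 and 0.65 in DKO 1, DKO 2 and DKO 3 and -0.05, 0.52 and -0.47 in Con 1, Con 2 and Con 3. Ttr, the thyroid hormone carrier of choroid plexus, read 6.55, 6.32 and 6.73 in DKO against 6.08, 6.53 and 5.60 in Con, overlapping. Slc4a5, a bicarbonate transporter, read -0.83, -0.86 and -0.81 against -1.85, -1.26 and -2.38 (difference 1.00, SE 0.25, limma adjusted p = 0.261). For 17 fibroblast genes of meninges and vessels DKO 3 had a median of -0.49 and lay below all Con arrays for 12, while DKO 1 and DKO 2 stood at 0.15 and -0.01. Col3a1, a fibrillar collagen, differed by -0.96 (SE 0.17, adjusted p = 0.224). The part of dissection in these values was not tested.

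Whether the genotype difference in cortex was unlike that in basal forebrain was tested on the cortex-minus-forebrain difference of each mouse. Of 26736 genes 0 passed by limma (0%), and 2371 had an unadjusted p under 0.05 (8.87%). The within-mouse difference crosses slides for Con 1 to 3 and DKO 3 but not for DKO 1 and DKO 2; with the mouse pair of DKO 3 left out 986 genes passed. The smallest p among named genes belonged to Kif14, a mitotic motor, which differed by -0.71 in cortex and 0.55 in basal forebrain (interaction -1.25, SE 0.12, limma adjusted p = 0.379), and to Hjv, the iron regulator hemojuvelin, at -1.13 and 0.44 (interaction -1.57, SE 0.16, adjusted p = 0.401). Ly6d, found on early B cells, differed by 1.33 in cortex and 3.67 in basal forebrain (interaction -2.34, adjusted p = 0.546).

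The blood-cell lists had positive medians in both regions. The median differences in basal forebrain, where all 6 arrays shared 1 slide, were 1.33 for B cells, 0.95 for neutrophils and 1.51 for red cells, beside 0.84, 0.92 and 1.23 in cortex. The median over members of the difference between the regions, cortex minus basal forebrain, was -0.57 for B cells, 0.14 for neutrophils and -0.27 for red cells. Ms4a1 read -2.94, -2.90 and -2.48 in DKO against -7.91, -9.15 and -9.01 in Con there. For the cytokine-induced list the medians were 0.19 (basal forebrain) and 0.39 (cortex), and for the glucocorticoid list 0.26 and 0.38. Bcl3 differed by 0.73 in basal forebrain and 1.54 in cortex, with an interaction of 0.81 (limma adjusted p = 0.546). A p above the threshold does not show that the regions responded alike.

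**Figure D5:**
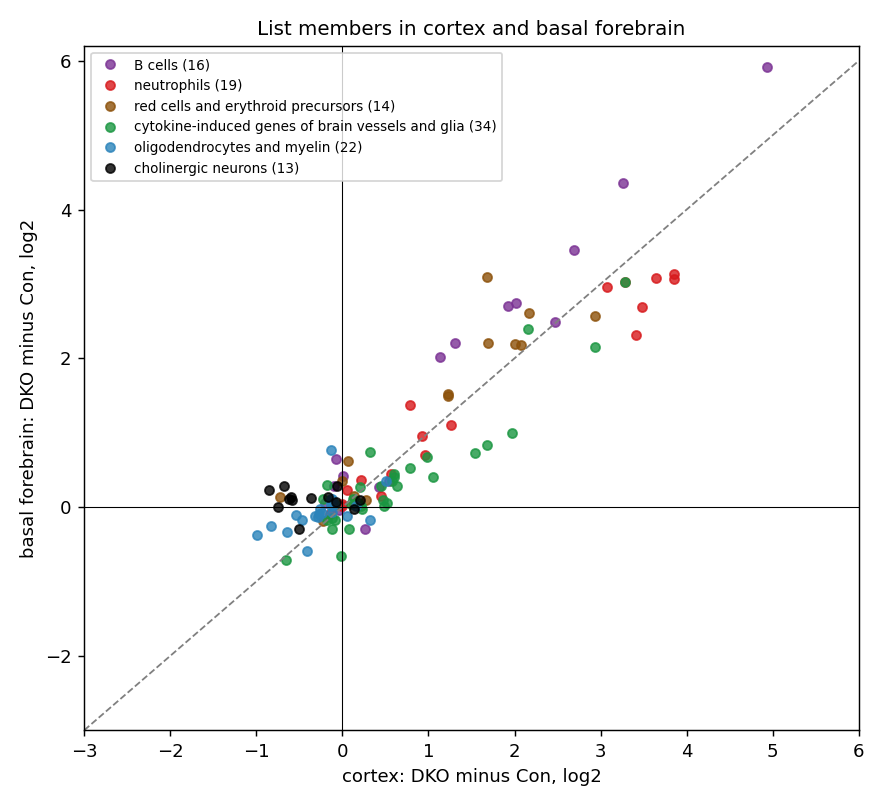
Difference between DKO and Con in basal forebrain (vertical) against that in cortex (horizontal), in log2, for the tested members of 6 lists; each point is a gene and the dashed line marks equality. The regions come from the same 6 mice, so the points are not independent; Many B-cell, neutrophil and red-cell genes lie high in both, with Ms4a1 at 4.93 in cortex and 5.92 in basal forebrain.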

How the data were processed

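RNA from cortex of 6 mice was read on 1-colour Agilent SurePrint G3 Mouse GE v2 arrays. Per the file headers, Agilent Feature Extraction 10.7.1.1 wrote a background-subtracted, detrended intensity for each spot, not scaled between arrays. The authors' deposited normalized log2 values have identical sorted values on all arrays; their making is not stated by any label or header used here, and they served as an alternative. Log2 intensities of unflagged spots were averaged per probe (56568 probes), and the 75th percentile of each array was subtracted. A RefSeq table gave current symbols to 32972 probes through accessions and to 520 through older symbols, and the rest kept the names in the files. The brightest probe over all 12 arrays stood for a gene, and genes well above background on all 3 arrays of a genotype were tested with limma 3.58.1 in R 4.3.3 (lmFit, eBayes with trend=TRUE, p adjusted by Benjamini-Hochberg over all tested genes). The interaction was fitted on the cortex-minus-forebrain difference of each mouse. Slide was taken from the array barcodes. Where no array of the lower genotype was above background, the fold is a bound set against the dimmest signal called above background on each array, averaged over the arrays. The bound holds for the scanner's background subtraction. Under normexp, an alternative tried, the differences of Ms4a1 and Fcrla fell below their bounds. The fit was tested on simulated data with independent noise. Those data held no slide or sex difference, so that test does not cover either. The replicates are separate mice by their labels, and their number, 3 per genotype, limits precision.

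The genes named were Psen2 and Chat, the genes that passed, the 12 largest differences each way among genes with unadjusted p under 0.01 and no overlap, the 5 smallest p-values each way, and up to 4 members per list by smallest p, with further members as description; unnamed transcripts were passed over. Members and lists were chosen with earlier results of these data known. A few genes, such as Etnppl and Rgs7, were named outside these rules. Results for the floxed gene and some further items are not reported here. Alternatives covered slide and replicate terms, scaling, background correction, filters, probe choice, weights, a 12-array fit and leaving out arrays. Genome coordinates of probes are those in the files (mm9).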

Additional observations from a re-analysis of the deposited data

How the results depend on the processing

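The alternatives were followed for 63 named genes. Many of these were named because their genotypes did not overlap on these arrays, so leaving out arrays could not change their direction. Among their 1304 values 0 changed direction. 197 of those values passed where the reported one did not, most of them without DKO 3, with array weights or with DKO 2 alone, and 20 no longer passed: 10 of 6330418B08Rik, 9 of Ms4a1 and 1 of Psen2. The number of genes passing (reported as 3) was 30 with DKO 3 set against Con on the shared slide, 1 with no filter, 0 by limma on the mean of a gene's probes (4709 at an unadjusted p under 0.05), 25 with all 12 arrays in 1 fit, 15358 with array weights, which gave DKO 3 a weight of 0.119, and 7817 with DKO 2 alone against Con; a lone DKO array was assumed to vary as Con does. The genes passing on the shared slide, where DKO 3 carried Xist signal, included the Y-linked Eif2s3y, Ddx3y and Uty. Leaving out 1 array gave 1 to 9709. Genes higher at an unadjusted p under 0.05 (1751) numbered 824 with slide as a block, 982 on the shared slide, 6364 with array weights, 4024 with DKO 2 alone, and 774 to 4570 with 1 array left out. Genes lower (3081) numbered 872, 977, 10121 and 7251 in the same order, and 1037 to 7903. For the regions compared, leaving out 1 mouse gave 0 to 986 genes passing and 1095 to 6535 at an unadjusted p under 0.05 (2371), and slide as a block 597. The share of lower genes among those at an unadjusted p under 0.05 was 63.8%, and 49.9% on the shared slide. Of 41 list medians, 20 changed sign under at least 1 alternative and 14 on the shared slide. Among lists whose median lay outside the middle 50% of all gene differences, those of border macrophages and monocytes (-0.14) and oligodendrocyte precursors (0.06) reversed with slide as a block and on the shared slide, and that of T and natural killer cells (-0.06) with array weights. Where DKO 1 and DKO 2 share no slide with Con, slide and genotype cannot be told apart. A block on the replicate number left 2 genes passing, Psen2 and Cd79b. Deviations of same-numbered arrays correlated at 0.02, 0.23 and 0.28, and the numbers belong to different mice, so the samples share only a number.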

Other observations

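Genes near Psen2 on chromosome 1 were counted after 6330418B08Rik was seen to lie there. With Psen2 and 6330418B08Rik themselves left out, 236 tested genes had probes within 10 Mb of the Psen2 probe. Of these, 8 lay below Con on all DKO arrays of both regions (3.39%) and 10 above (4.24%). Over all tested genes these shares were 1.24% and 1.04%, and from 10 to 20 Mb they were 1.18% and 1.78%. Among those lower were Dusp23 (-0.59 in cortex, -0.51 in basal forebrain), Rgs7 (-0.39 and -0.36), Ppox, an enzyme of haem synthesis (-0.46 and -0.72), and Vangl2, a planar polarity protein (-0.37 and -0.47). Among those higher were Kcnj10, a potassium channel of astrocytes (0.35 and 0.34), and Ifi202b, an interferon-inducible gene (0.97 and 1.05). Fcrla lies in the same window.

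Osteocalcin genes, made by bone-forming cells, stood high on 1 array per region and in different mice; they were noticed after their values were seen. Bglap2 read 0.03 in cortex of DKO 3, against -3.51 and -3.28 in DKO 1 and DKO 2 and -3.18 to -2.39 in Con. In basal forebrain it read -0.10 in DKO 2, against -4.90 and -4.26 in DKO 1 and DKO 3 and -4.69 to -2.87 in Con. Bglap3 followed with -0.22 in cortex of DKO 3 and -0.44 in basal forebrain of DKO 2; the probes of these near-identical genes may read each other's RNA.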
